A study of Mus musculus with 22 samples.

Results

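The genes described here are the mouse matrix metalloproteinases (Mmp), the ADAMTS proteases (Adamts), the ADAMTS-like proteins (Adamtsl) and the tissue inhibitors of metalloproteinases (Timp). They were taken by symbol, as every protein-coding gene of the GENCODE mm10 annotation whose symbol is one of these 4 stems followed by a digit. Of 50 such genes, 34 had a mean deposited value of at least 10 in the left or the right ventricle table and were measured, out of 13824 genes that passed the same limit. These were 16 of 19 Adamts genes, 5 of 5 Adamtsl genes, 9 of 22 Mmp genes and 4 of 4 Timp genes. The other 16 stayed under the limit in both tables and are not among the members described: Adamts13, Adamts16, Adamts18, Mmp1b, Mmp3, Mmp7, Mmp8, Mmp9, Mmp10, Mmp12, Mmp13, Mmp20, Mmp21, Mmp24, Mmp25 and Mmp27.

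Extracellular matrix is built, trimmed and renewed by secreted and membrane-bound zinc proteases. MMPs cut collagens, elastin and many cell surface proteins, ADAMTS proteases cut proteoglycans such as versican, or trim procollagens, and TIMPs bind the active sites of both. ADAMTS-like proteins share the accessory domains of ADAMTS proteases but lack the protease domain, and several bind fibrillin microfibrils. In the heart these families are known for their part in ventricular remodelling and in valve and septum development.

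The study set banding of the pulmonary artery in newborn mice (nPAB), a constriction that makes the right ventricle (RV) pump against higher pressure, beside a sham operation. Mice were CD1, an outbred stock. Banding around a 30G needle, or the sham operation, was done on postnatal day 1, and hearts were taken 7 days later. Bulk RNA was sequenced from the RV and from the left ventricle (LV), which the band does not obstruct, of 6 banded mice (numbered 5, 6, 7, 8, 10 and 11) and 5 Sham mice (numbered 9 to 13), which gave 4 groups, RV nPAB, RV Sham, LV nPAB and LV Sham, and 22 libraries, all with batch label 1. A number that occurs in both arms names different animals.

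Libraries held 7.11 to 11.3 M reads, with medians of 9.46 M in RV nPAB, 8.08 M in RV Sham, 9.72 M in LV nPAB and 8.14 M in LV Sham. Markers of cardiomyocytes were abundant in every library, and the 3 atrial markers Myl7, Myl4 and Sln summed to 144 to 2474 in RV Sham and 736 to 9729 in RV nPAB, none of them called (estimates of 1.66, 2.11 and 1.33). The sex read from Xist and Ddx3y matched between the ventricles of 9 of 11 mice. The exceptions were nPAB mouse 6, with a male LV and a female RV, and nPAB mouse 7, with the reverse, so the libraries under each of these numbers did not come from 1 animal. Values that rest on these 4 libraries are therefore also given without both mice where a call changes.

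Promoter sequences of 3 of the members that rose in the RV with no overlap between the groups are shown first. They are the 250 bases before the RefSeq start (GRCm38.p6, written on the gene's own strand). Capitals mark the GC box GGGCGG, a binding motif of Sp-family factors, and ACGTG, the core of the hypoxia response element, on either strand.
Timp1, chrX:20869916-20870165, plus strand: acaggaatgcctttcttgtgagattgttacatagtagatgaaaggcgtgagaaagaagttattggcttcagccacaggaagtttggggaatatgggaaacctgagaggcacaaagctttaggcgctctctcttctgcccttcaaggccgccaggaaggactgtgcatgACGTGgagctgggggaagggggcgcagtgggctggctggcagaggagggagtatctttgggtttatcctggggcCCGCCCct
Adamts1, chr16:85803114-85803363, minus strand: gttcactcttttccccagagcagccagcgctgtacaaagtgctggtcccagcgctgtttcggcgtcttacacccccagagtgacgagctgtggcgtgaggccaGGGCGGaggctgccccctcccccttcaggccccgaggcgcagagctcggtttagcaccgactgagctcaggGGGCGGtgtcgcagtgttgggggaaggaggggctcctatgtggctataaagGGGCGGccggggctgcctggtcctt
Adamts20, chr15:94404351-94404600, minus strand: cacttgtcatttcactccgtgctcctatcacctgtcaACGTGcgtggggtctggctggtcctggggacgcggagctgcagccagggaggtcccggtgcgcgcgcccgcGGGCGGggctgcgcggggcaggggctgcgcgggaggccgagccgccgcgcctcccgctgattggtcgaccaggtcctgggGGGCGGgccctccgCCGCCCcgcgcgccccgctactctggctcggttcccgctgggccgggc

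Timp1 held 1 GC box and 1 ACGTG, Adamts1 held 3 GC boxes and no ACGTG, and Adamts20 held 3 GC boxes and 1 ACGTG. Adamtsl5 and Timp3, not shown, also rose in the RV without overlap, and their promoters held a GC box but no ACGTG. Adamts8 and Adamtsl1 rose in the RV without overlap too and gave no match. Whether a promoter was listed for them is not stated here. The RefSeq start of Adamts20 lies 61.1 kb inside the longer gene drawn by GENCODE, so this window is 1 of its possible promoters. Of the 34 members, 21 had an entry in the RefSeq promoter table, with 22 promoters. GC boxes stood in 17 of these 22 (77.3%), against 32.7% of all 32851 promoters, and ACGTG stood in 5 of 22 (22.7%), against 16.6%. The members had passed a limit on their level and the full set of promoters had not, so the sets are unlike. GC boxes also stood in members that fell in the RV (Mmp11, Adamts3 and Adamtsl3) and in members not called, such as Timp2 and Mmp15. The AP-1 motif TGANTCA was in 0 of 22 (6.75% of all), the E-box CACGTG, which contains ACGTG, in 1 (6.02%), the TEAD motif GGAATG in 1 (12.6%) and the NFAT core GGAAAA in 4 (20.4%), both strands searched. A match describes these letters only and does not show a binding site, and a window without a match says nothing about the factor.

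In the banded RV, 17 of the 34 members changed, 9 upwards and 8 downwards. Adamtsl2, Adamtsl5, Adamts8, Adamts1 and Timp1 rose by more than 2-fold. Mmp16 and Adamts7 fell by more than 2-fold. Adamts20 rose from a median of 1.10 normalized counts in RV Sham (0 to 9 reads per library) to a median of 138 in RV nPAB. It passed the limit only through its banded libraries and so had to differ to be measured. Of the other 33 members, 16 were called in the RV, 8 in each direction, and 9 had no overlap between the groups. In the LV of the same mice 7 members changed, all of them also called in the RV and in the same direction. The 17 RV calls are 50% of the members, against a background of 22% of all 13660 genes tested. The 7 LV calls are 20.6%, against 9.31% of 13528 genes. By direction, 9 members rose in the RV (background 11.1%) and 8 fell (10.8%), and 6 rose in the LV (4.76%) and 1 fell (4.55%). The LV split depended on the processing, with 5 higher and 3 lower by RPM (reads scaled to library total), 7 and 3 with library weights, and 5 and 4 without banded mouse 10. Banded and Sham libraries did not overlap for 10 members in the RV, all of them called (background 12.9%, or 12.2% called and not overlapping), and for 4 in the LV, all called (6.53% and 5.37%). Calls are adjusted p under 0.05 from limma, fitted across all genes of a ventricle on log2 of the normalized count plus 1. Members had a median log2 fold change of -0.07 (RV) and 0.05 (LV), while all genes tested had medians of 5.16e-05 and -0.01. In these bulk libraries, fewer cells of a type and less RNA per cell cannot be told apart.

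**Figure D1:**
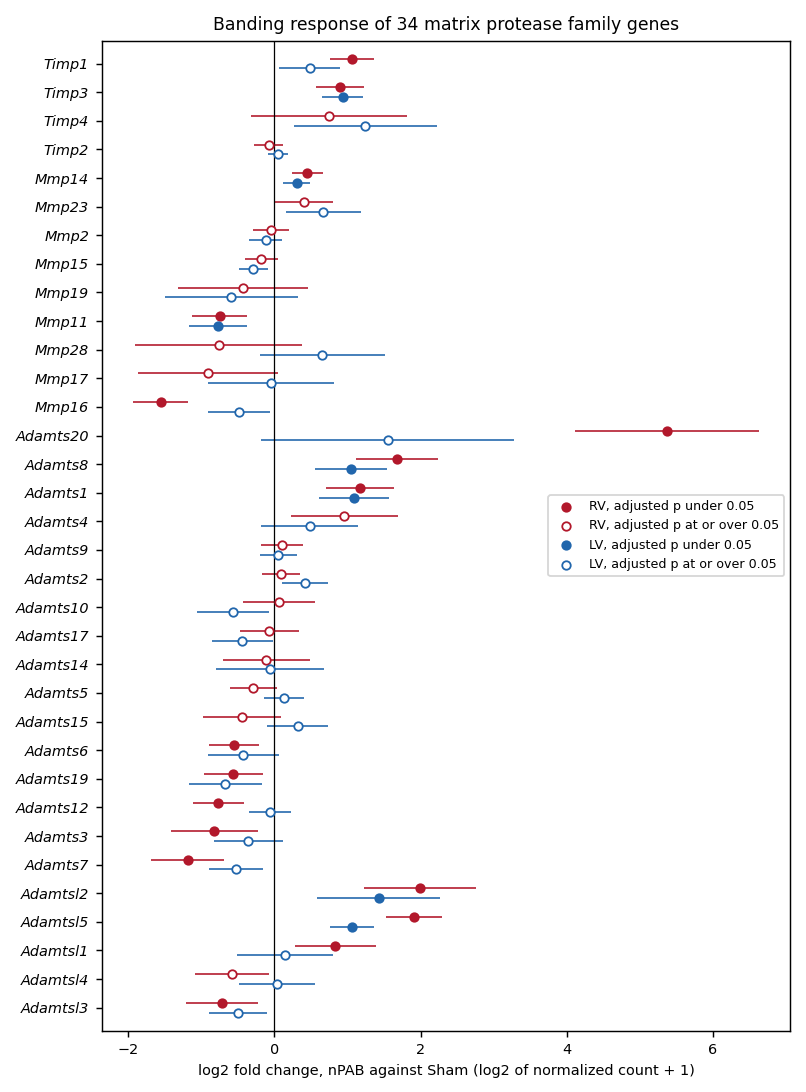
Log2 fold change, nPAB against Sham, of the 34 measured members in the RV (red) and the LV (blue), with 95% confidence intervals from limma; filled points have an adjusted p under 0.05. All 17 RV calls have an LV estimate on the same side of 0, and Adamts20 stands farthest to the right at 5.37 in the RV.

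Among the 4 inhibitors, Timp1 and Timp3 rose in the RV and Timp2 and Timp4 did not pass the test. Timp1, a secreted inhibitor induced in many injured tissues, is a gene of the X chromosome (chrX:20870166-20874735, mm10) that lies within an intron of the synapsin gene Syn1 on the opposite strand. Its normalized counts were 115, 119, 183, 116 and 135 in the RV of Sham mice 9 to 13, the order used for all Sham values. In the banded RV they ran from 240.1 to 337 with a median of 269.7. Every banded RV was above every Sham RV, a log2 fold change of 1.06 ± 0.15 (SE), adjusted p = 5.62e-05 by limma. In the LV, Sham values of 96.4, 133, 215, 181 and 130.2 overlapped those of banded mice, which ran from 151 to 276 with a median of 215. The LV log2 fold change of Timp1 was 0.48 ± 0.20 (SE), adjusted p = 0.135, and the difference between the ventricles was 0.58 (adjusted p = 0.23). Timp1 was thus called in the RV, and a difference from its LV change was not shown.

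Timp3, the inhibitor that stays bound to the matrix and also acts on ADAMTS and ADAM proteases, rose in both ventricles. Its RV values were 1729, 1292, 1004, 1177 and 993 in Sham mice and ran from 1729 to 2885 with a median of 2209 in banded mice. The lowest banded RV, mouse 10 (1729.4), lay just above the highest Sham RV, mouse 9 (1729.0), so the groups touched without crossing. The RV change was 0.89 ± 0.15 (SE), adjusted p = 0.000875. LV values were 1612, 1266, 935, 1284 and 939 in Sham mice and ran from 1825 to 2569 with a median of 2371 in banded mice, again without overlap. The LV change was 0.93 ± 0.13 (SE), adjusted p = 0.00063, and the RV change minus the LV change was -0.04 with a 95% interval of -0.27 to 0.20. Timp3 shares 21.3% of its exon bases with Syn3 on the opposite strand. Syn3 had a mean of 8.80 in the RV table.

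Timp2, which both inhibits MMPs and helps MMP14 activate pro-MMP2, had the highest level per length of all members and overlapped between groups. Its RV values were 2350, 2371, 1846, 1739 and 1869 in Sham mice and ran from 1655 to 2254 with a median of 1912 in banded mice. Its estimates were -0.08 (adjusted p = 0.614) in the RV and 0.05 (adjusted p = 0.713) in the LV, with 95% intervals of -0.28 to 0.12 and -0.09 to 0.19. Timp4, an inhibitor known for its high level in heart, varied widely among mice of a group. Its RV values were 260.2, 144, 80.2, 129 and 48.1 in Sham mice and ran from 90.0 to 349 with a median of 223 in banded mice. In the LV, Sham mice had 313, 208, 76.1, 165 and 66.7, and banded mice ran from 222 to 698 with a median of 313, where mouse 11 stood far above the others. The Timp4 estimates were 0.75 (adjusted p = 0.316) in the RV and 1.25 (adjusted p = 0.108) in the LV, neither of them called. Without LV Sham mouse 9 the LV change of Timp4 was called at 1.53 (adjusted p = 0.044).

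**Figure D2:**
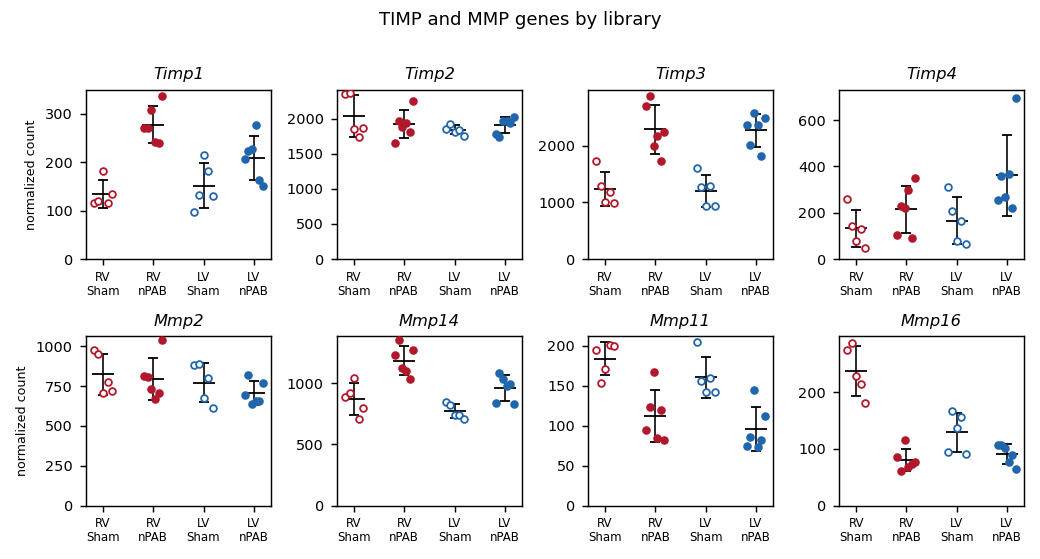
Normalized counts of the 4 Timp genes and of Mmp2, Mmp14, Mmp11 and Mmp16 in each library of the 4 groups (points), with mean and SD (black bars); each axis starts at 0. Timp1 and Mmp16 separate the RV groups, Timp3 separates both ventricles' groups, and Timp2 and Mmp2 overlap throughout.

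Of the 4 measured membrane-type MMPs, Mmp14 rose and Mmp16 fell in the RV, and Mmp15 and Mmp17 did not pass. Mmp16, which cuts collagen and activates pro-MMP2, fell. RV Sham values were 275, 287, 229, 214 and 181, and banded RV values ran from 60.7 to 116 with a median of 75.7. The highest banded value, 116, was below the lowest Sham value, 181, and the change was -1.56 ± 0.18 (SE), adjusted p = 1.08e-05. In the LV the Sham values were 94.5, 167, 136, 157 and 91.5 and banded mice ran from 65.3 to 107 with a median of 94.7, an estimate of -0.48 ± 0.20 (SE), adjusted p = 0.147. Per length, Mmp16 stood at an RPKM (recovered reads scaled to exon length and library size) of 3.17 ± 0.606 in RV Sham, 1.01 ± 0.255 in RV nPAB, 1.73 ± 0.474 in LV Sham and 1.17 ± 0.236 in LV nPAB (SD).

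Mmp14, the main pericellular collagenase, rose in the RV. RV values were 888, 923, 1040, 704 and 799 in Sham mice and ran from 1036 to 1350 with a median of 1176 in banded mice. The groups overlapped narrowly, with banded mouse 10 (1036) just below Sham mouse 11 (1040), and the change was 0.45 ± 0.10 (SE), adjusted p = 0.00312. In the LV the Sham values of Mmp14 were 849, 823, 744, 744 and 710.4, and banded mice ran from 827 to 1084 with a median of 985. The LV change was 0.30 ± 0.09 (SE), adjusted p = 0.0374. That LV call was lost on leaving out Sham mouse 11, 12 or 13 (adjusted p 0.0821, 0.0883 and 0.0869) or banded mouse 6, 7, 8 or 10 (0.0774, 0.0843, 0.0653 and 0.0611). Without nPAB mice 6 and 7 together the adjusted p was 0.177. RPM (0.121), no filter on low values (0.0798) and limma without its trend and robust options (0.096) did not call it either.

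Mmp2, the gelatinase that MMP14 activates, overlapped between groups. RV values were 975, 949, 705, 774 and 717 in Sham mice and ran from 671 to 1041 with a median of 771 in banded mice. Its estimate was -0.05 (adjusted p = 0.798) in the RV, with a 95% interval of -0.30 to 0.19, and -0.12 (adjusted p = 0.53) in the LV, with an interval of -0.34 to 0.10. Mmp9, the other gelatinase, was under the limit of a mean of 10. Mmp11, a secreted MMP that furin activates inside the cell, fell in both ventricles. RV values were 194, 153, 171, 201 and 199.5 in Sham mice and ran from 81.9 to 168 with a median of 107 in banded mice, a change of -0.75 ± 0.18 (SE), adjusted p = 0.00575. LV values were 205, 156, 142, 159 and 142 in Sham mice and ran from 73.7 to 144 with a median of 84.1 in banded mice, a change of -0.78 ± 0.19 (SE), adjusted p = 0.0152. In both ventricles only the banded library numbered 7 reached into the Sham range, and the RV and LV libraries of that number differ in sex. Mmp11 shares 5.58% of its exon bases with Chchd10 on the opposite strand, a gene with a mean of 11300 in the RV table, and the sources used here do not say whether counting used strand. The other 4 of these 5 MMPs, Mmp2, Mmp19, Mmp23 and Mmp28, were not called in either ventricle, with RV estimates between -0.76 and 0.41.

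Of the 7 measured ADAMTS proteases known to cut proteoglycans, 3 rose in the RV (Adamts20, Adamts8 and Adamts1) and 4 did not pass (Adamts4, Adamts5, Adamts9 and Adamts15, between -0.44 and 0.96). Adamts20, known from the belted mouse, whose pigment cells are lost in part of the coat, and from versican turnover in development, lies at chr15:94270163-94465418 (mm10). RV Sham values were 1.06, 1.10, 7.14, 0 and 9.39, from 0 to 9 reads per library. Banded RV values ran from 45.6 to 296 with a median of 138. All 6 banded RVs lay above all 5 Sham RVs, and the group means were 154 ± 84.5 and 3.74 ± 4.23 (SD). The change was 5.37 ± 0.59 (SE), adjusted p = 2.13e-05 on the log2(count + 1) scale, and 3.46 with a pseudocount of 10. The Sham means, 3.74 in the RV and 8.79 in the LV, were under 10, and the gene passed the limit only through the banded libraries.

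In the LV, Adamts20 was uneven among banded mice. Sham LVs had 13.6, 8.46, 12.2, 6.46 and 3.23, while the banded LVs had 23.1 in mouse 5, 155 in mouse 6, 45.7 in mouse 7, 67.6 in mouse 8, 4.81 in mouse 10 and 3.63 in mouse 11. Mice 10 and 11 thus lay within the Sham range in the LV although their RVs held 194 and 140.2. The LV estimate of Adamts20 was 1.55 ± 0.81 (SE), adjusted p = 0.256 by limma, while DESeq2 on recovered reads gave 2.51 (adjusted p = 0.037). Among melanocyte markers, Dct also rose in the RV. The 4 genes Dct, Tyr, Pmel and Mlana summed to 17.6 to 30.8 in RV Sham and 59.5 to 178 in RV nPAB, and to 20.4 to 58.0 in LV Sham and 15.1 to 132 in LV nPAB. Dct, at 2.61, was the 1 of 4 that rose in the RV and made up most of the banded sums (48.2 to 162), Mlana did not pass (0.25), and Tyr and Pmel were under the limit, with Tyr at 0 in every RV Sham library and at most 2.00 in RV nPAB. The part of pigment cells in the Adamts20 change was not tested.

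Adamts1, a versican-cleaving protease, rose in both ventricles. RV values were 219.8, 206, 283, 265 and 218 in Sham mice and ran from 344 to 934 with a median of 567 in banded mice, without overlap (1.17 ± 0.22 (SE), adjusted p = 0.00175). LV values were 159.7, 184, 249.7, 246 and 234 in Sham mice and ran from 265 to 664 with a median of 468 in banded mice, also without overlap (1.09 ± 0.22 (SE), adjusted p = 0.00836). Adamts8, another protease of this group, also rose in both. Its RV values were 15.9, 27.4, 59.5, 28.2 and 38.7 in Sham mice and ran from 77.0 to 122 with a median of 103 in banded mice (1.67 ± 0.27 (SE), adjusted p = 0.00024). Its LV values were 36.0, 32.6, 26.4, 35.5 and 34.4 in Sham mice and ran from 52.0 to 98.8 with a median of 66.2 in banded mice (1.05 ± 0.24 (SE), adjusted p = 0.00921). All banded libraries of Adamts8 were above all Sham libraries in both ventricles. Both genes have a close neighbour in the same family that was not called. Adamts1 and Adamts5 lie 53.1 kb apart within chr16:85793827-85901828 on the same strand, and the RV estimate of Adamts5 was -0.29 (adjusted p = 0.195). Adamts15 and Adamts8 lie 20.1 kb apart within chr9:30899155-30963838 on opposite strands, and the RV estimate of Adamts15 was -0.44 (adjusted p = 0.238).

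Adamts7 and Adamts12, which cut cartilage oligomeric matrix protein, both fell in the RV. Adamts7 values in the RV were 245, 191, 125, 138 and 205 in Sham mice and ran from 39.8 to 114 with a median of 80.7 in banded mice. The groups did not overlap, and the change was -1.19 ± 0.24 (SE), adjusted p = 0.00164. In the LV, Adamts7 had 178, 149.8, 193, 167 and 152 in Sham mice and ran from 90.5 to 170.5 with a median of 105 in banded mice, an estimate of -0.53 (adjusted p = 0.0668) that was not called. RPM in place of size factors (-0.59, adjusted p = 0.0368), library weights (-0.53, 0.0443) or leaving out banded mouse 11 (-0.64, 0.0195) made it a call. Adamts12 values in the RV were 593, 652, 565, 544 and 494 in Sham mice and ran from 221 to 542 with a median of 325 in banded mice. Only banded mouse 7, at 542, reached the Sham range, and the change was -0.77 ± 0.16 (SE), adjusted p = 0.00311. LV values of Adamts12 were 451, 509.8, 329.9, 457 and 348 in Sham mice and ran from 316 to 515 with a median of 407 in banded mice, an estimate of -0.06 (adjusted p = 0.836).

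Adamts6, linked to fibrillin microfibrils and heart development, fell in the RV, and its relative Adamts10 did not pass. Adamts6 values in the RV were 127, 115, 121, 181 and 128 in Sham mice and ran from 78.9 to 106 with a median of 90.7 in banded mice. The groups did not overlap (-0.55 ± 0.16 (SE), adjusted p = 0.0207), but the call was lost without Sham mouse 12, the highest library, where the change was -0.44 (adjusted p = 0.0711), and without the filter on low values (0.0505). LV values of Adamts6 were 83.8, 105, 105, 147 and 113 in Sham mice and ran from 43.2 to 117 with a median of 87.4 in banded mice (-0.42 (adjusted p = 0.268)). Adamts3, a procollagen N-proteinase (-0.82 (adjusted p = 0.0448)), and Adamts19 (-0.56 (adjusted p = 0.0407)) fell in the RV. Each lost its call in 8 of the 11 fits that left out 1 mouse. Adamts3 kept its call without Sham mouse 9 or banded mouse 7 or 8, and Adamts19 without Sham mouse 12 or banded mouse 6 or 7. Without the others the adjusted p ran from 0.056 to 0.11 for Adamts3 and from 0.0549 to 0.0988 for Adamts19. Both calls were also lost without the filter on low values (0.0574 for Adamts3 and 0.0742 for Adamts19) and without limma's trend and robust options (0.0866 and 0.0564), and edgeR did not call Adamts3 (0.0521). The procollagen N-proteinases Adamts2 and Adamts14 had RV estimates of 0.09 and -0.11 and were not called, nor was Adamts17 (-0.07).

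**Figure D3:**
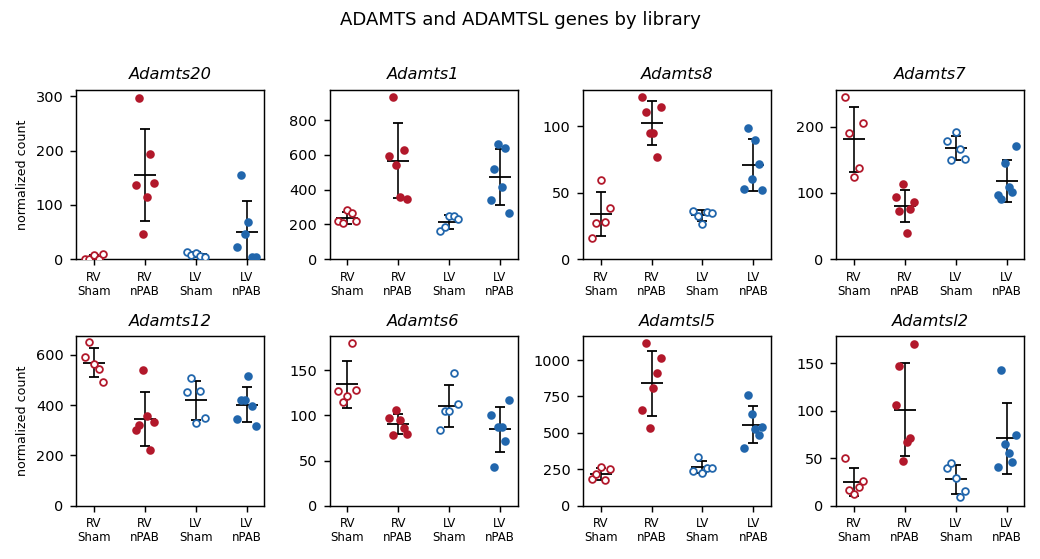
Normalized counts of 6 Adamts and 2 Adamtsl genes in each library of the 4 groups (points), with mean and SD (black bars); each axis starts at 0. The Adamts20 panel shows the Sham libraries near 0, the banded RVs between 45.6 and 296, and banded LVs spread from 3.63 to 155.

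Of the 5 ADAMTS-like genes, 3 rose in the RV (Adamtsl5, Adamtsl2 and Adamtsl1), Adamtsl3 fell and Adamtsl4 did not pass (-0.59 (adjusted p = 0.0912)). Adamtsl5, a fibrillin-binding secreted protein, had the smallest adjusted p of all members. RV values were 181, 215, 268, 175 and 254 in Sham mice and ran from 529.6 to 1115 with a median of 857 in banded mice. The lowest banded RV held 530 and the highest Sham RV 268, and the change was 1.91 ± 0.18 (SE), adjusted p = 4.22e-06. LV values were 241, 331, 226, 260.4 and 257 in Sham mice and ran from 397 to 761 with a median of 535 in banded mice, again without overlap (1.06 ± 0.14 (SE), adjusted p = 0.000198).

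Adamtsl2, whose human mutations cause a short-stature disorder with heart valve disease and which binds latent TGF-beta binding protein, rose in both ventricles. RV values were 49.9, 16.4, 12.7, 19.5 and 25.8 in Sham mice and ran from 46.5 to 170.5 with a median of 88.5 in banded mice. Sham mouse 9 (49.9) and banded mouse 7 (46.5) overlapped, and the change was 2.00 ± 0.36 (SE), adjusted p = 0.000847. LV values were 39.9, 44.7, 29.4, 8.61 and 15.1 in Sham mice and ran from 41.2 to 144 with a median of 60.0 in banded mice, where mouse 6 stood far above the rest (1.43 ± 0.40 (SE), adjusted p = 0.0328). The LV call was lost without Sham mouse 11, 12 or 13 (adjusted p 0.0534, 0.0828 and 0.0776) or banded mouse 6, 7 or 11 (0.0642, 0.063 and 0.0522), and without mice 6 and 7 together the change was 1.14 (adjusted p = 0.13). It was also lost without limma's trend and robust options (0.0833).

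Adamtsl1 values in the RV were 29.7, 30.7, 38.9, 18.5 and 35.2 in Sham mice and ran from 39.7 to 90.7 with a median of 50.6 in banded mice. The groups did not overlap, by 38.9 against 39.7, and the change was 0.83 ± 0.26 (SE), adjusted p = 0.0294. Without Sham mouse 12 it was 0.67 (adjusted p = 0.0821), without banded mouse 8 it was 0.68 (0.0712), and without mice 6 and 7 it was 0.86 (0.0581). By RPM it was 0.74 (adjusted p = 0.0529), and without the filter on low values the adjusted p was 0.0587. LV values of Adamtsl1 were 23.4, 36.2, 65.0, 20.4 and 24.8 in Sham mice and ran from 28.2 to 50.1 with a median of 30.3 in banded mice (0.14 (adjusted p = 0.826)). Adamtsl3 fell in the RV (-0.72 (adjusted p = 0.0345)), and kept its call only without Sham mouse 13 or banded mouse 7 or 8. Leaving out any 1 of the other mice gave adjusted p values from 0.0526 to 0.0864. DESeq2 (-0.62, adjusted p = 0.0598) and edgeR (-0.62, adjusted p = 0.0823) did not call it, nor did limma without its trend and robust options (0.0715).

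A few other members were not called with all libraries but passed when 1 was left out. In the RV these were Adamts4 without Sham mouse 11 (1.29, adjusted p = 0.00657) and Adamtsl4 without Sham mouse 11 (-0.78, 0.0202) or banded mouse 11 (-0.71, 0.039). In the LV they were Adamts2 (0.50, adjusted p = 0.0337) and Mmp15 (-0.35, 0.0147) without banded mouse 5, and Adamts10 (-0.71, 0.0496), Adamts19 (-0.78, 0.0433) and Adamtsl3 (-0.61, 0.0446) without banded mouse 10. With all libraries their estimates were 0.96 (adjusted p = 0.0553) for Adamts4 and -0.59 (adjusted p = 0.0912) for Adamtsl4 in the RV. Those in the LV were 0.41 (adjusted p = 0.091) for Adamts2, -0.29 (adjusted p = 0.0598) for Mmp15, -0.56 (adjusted p = 0.144) for Adamts10, -0.67 (adjusted p = 0.0825) for Adamts19 and -0.50 (adjusted p = 0.105) for Adamtsl3.

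Whether a member changed by different amounts in the 2 ventricles was tested on log2 RV minus log2 LV within each mouse, banded against Sham. Under the numbers 6 and 7 of the banded mice the RV and LV libraries differ in sex. Their differences below therefore pair libraries by number and are not within 1 animal. The RV-minus-LV difference was lower with banding for Mmp16 and Adamts12 and higher for Adamtsl5. These 3 of 34 (8.82%) compare with a background of 1.06% of 13824 genes (0.557% higher and 0.506% lower), and the groups did not overlap for 1 member, which was called (background 1.76%, or 0.68% called and not overlapping). For Mmp16 the within-mouse differences were 1.53, 0.78, 0.74, 0.44 and 0.97 in Sham mice 9 to 13 and ran from -0.80 to 0.24 with a median of -0.21 in banded mice. These did not overlap, and the difference was -1.08 ± 0.24 (SE), adjusted p = 0.0219. For Adamtsl5 the within-mouse differences were -0.41, -0.62, 0.24, -0.57 and -0.02 in Sham mice and ran from -0.25 to 0.91 with a median of 0.67 in banded mice. Banded mouse 7 was the lone banded mouse below 0, and the difference was 0.85 ± 0.19 (SE), adjusted p = 0.0273. For Adamts12 they were 0.39, 0.35, 0.78, 0.25 and 0.51 in Sham mice and ran from -0.83 to 0.36 with a median of -0.30 in banded mice. Mouse 7 again lay within the Sham range, and the difference was -0.71 ± 0.17 (SE), adjusted p = 0.0301.

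These calls moved with single mice. The Mmp16 difference was no longer called without Sham mouse 9, 10 or 13 or banded mouse 5 (adjusted p 0.0977, 0.0505, 0.0653 and 0.0588). Adamtsl5 was lost without Sham mouse 9, 10 or 12 (0.103, 0.108 and 0.104) or banded mouse 5, 8, 10 or 11 (0.0786, 0.0593, 0.0747 and 0.0655). Adamts12 was lost without any 1 Sham mouse (0.0503 to 0.1) or without banded mouse 5, 8 or 10 (0.0702, 0.0796 and 0.0771). For Adamts20 the difference was 3.82 ± 1.08 (SE), adjusted p = 0.144, with within-mouse values of -2.83, -2.17, -0.69, -2.90 and 1.30 in Sham mice and from -0.0042 to 5.07 with a median of 1.72 in banded mice. Without nPAB mouse 7 it was 4.30 (adjusted p = 0.0185), and without nPAB mice 6 and 7, the mice whose libraries differ in sex, it was 4.77 (adjusted p = 0.00296). Leaving out both also called Adamts5 (-0.53, adjusted p = 0.015) and Adamtsl4 (-0.78, adjusted p = 0.0437), which gave 6 members, and kept the other 3. Adamts20 is 1 of these 6 and passed the limit only through its banded libraries, so it had to differ to be measured. Of all 13824 genes, 385 were called without nPAB mouse 7 alone, against 147 with all mice. No count over all genes is given here for the fit without both mice, so its 6 members stand without a background. With the LV libraries of mice 6 and 7 exchanged, so that sexes match, Mmp16 kept its call (adjusted p = 0.0362) while Adamts12 (0.058) and Adamtsl5 (0.184) lost theirs. None of the 3 was called by limma without the filter on low values, without its trend and robust options or without pairing. In these fits 12, 12 and 8 members had an unadjusted p under 0.05, a limit for which no share over all genes is given.

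**Figure D4:**
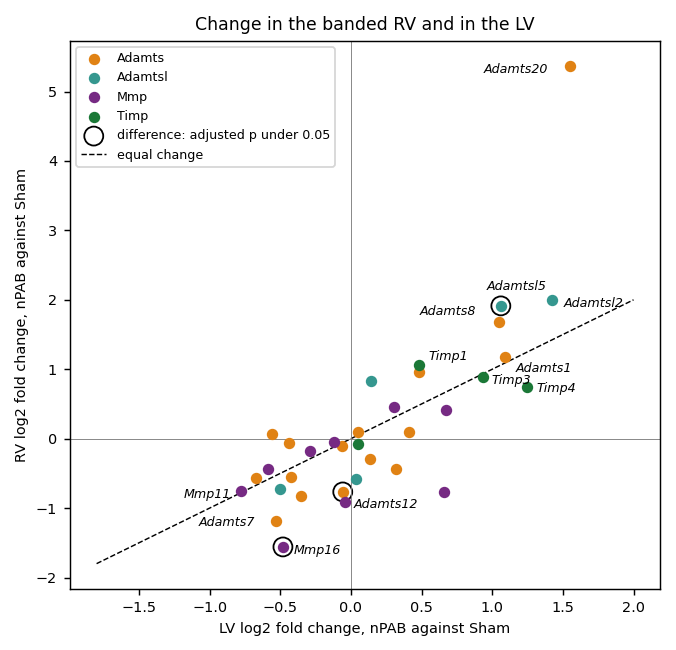
RV log2 fold change (vertical axis) against LV log2 fold change (horizontal axis) of the 34 members, nPAB against Sham, coloured by family; circles mark members whose difference between ventricles had an adjusted p under 0.05, and the dashed line marks equal change. Timp3, Adamts1 and Mmp11 lie close to the line, and Mmp16, Adamts12 and Adamtsl5 are circled.

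Of the 6 fibroblast markers Pdgfra, Tcf21, Col1a1, Dpt, Lum and Dcn, 2 fell in the RV, Pdgfra (-0.45) and Dpt (-0.74), and both were also lower in the RV-minus-LV difference (-0.58 and -0.49), the comparison in which Mmp16 and Adamts12 were called lower. The other 4 did not pass in either, with RV estimates from -0.46 (Dcn) to -0.13 (Col1a1). The 2 called are 33.3% of the list in each comparison, against 22% of all genes in the RV and 1.06% in the difference. In the RV-minus-LV difference all 6 had an unadjusted p under 0.05, with a list median of -0.37 (0.01 over all genes). No share over all genes is given at that unadjusted limit, here or for the epicardial markers below. The LV estimates of the 6 ran from -0.25 (Dpt) to 0.21 (Tcf21). The list summed to 28700 to 37630 in RV Sham, 18830 to 30650 in RV nPAB, 24050 to 27720 in LV Sham and 20220 to 31700 in LV nPAB, and no marker was at 0. The part of fibroblasts in the falls of Mmp16, Adamts7, Adamts12 and the others was not tested. Epicardial markers (Wt1, Upk3b, Upk1b, Msln and Krt19) summed to 166 to 338 in RV Sham and 317 to 596 in RV nPAB, with 0 of 5 called by limma and 3 of 5 at an unadjusted p under 0.05. Their part in the rises was not tested.

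Levels were compared between genes as RPKM from recovered reads. In RV Sham, Timp2 was highest at 60.5 ± 9.26 (SD, n = 5), followed by Mmp2 at 28.3 ± 4.51. Mmp15 (19.6 ± 2.51), Timp3 (17.6 ± 4.33), Timp1 (17.4 ± 3.94) and Mmp14 (16.9 ± 2.69) came next and did not differ beyond their SDs. The Adamts genes stood lower, from Adamts5 at 7.82 ± 0.798 downwards, with Adamts10 at 0.985 ± 0.318, and Adamts20 was lowest at 0.0483 ± 0.0544. In RV nPAB the level per length of Timp1 was 33.9 ± 4.19 (SD, n = 6) and that of Timp3 30.6 ± 6.01, next to Mmp2 at 25.6 ± 3.53, and Adamtsl5 stood at 19.3 ± 5.05. Adamts20 reached 1.87 ± 1.05 in RV nPAB, near Adamts17 at 1.85 ± 0.423.

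**Figure D5:**
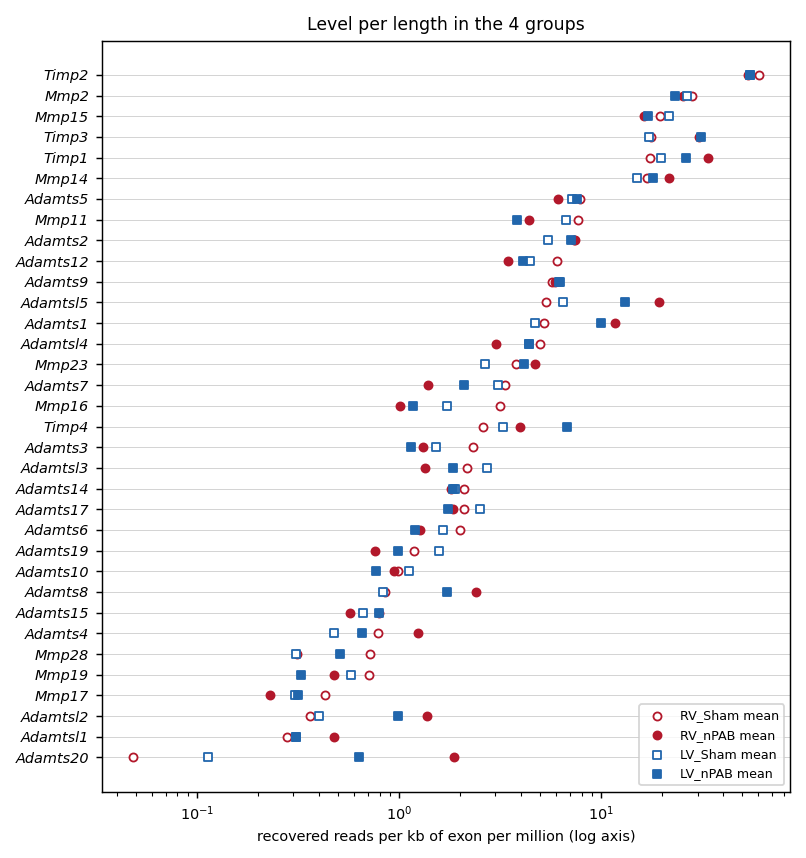
Mean level per length (RPKM from recovered reads, log axis) of the 34 members in the 4 groups, ordered by RV Sham; open symbols are Sham, filled symbols nPAB, circles RV and squares LV. Timp2 is at the top in all groups, and Adamts20 moves from the lowest place in RV Sham to the middle of the order in RV nPAB.

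In the Sham mice, 5 members (14.7%) had a higher RPM in the RV than in the LV of every mouse, namely Adamts2, Adamts3, Adamts6, Adamts12 and Mmp16, against 7.57% of all genes. Mmp15 and Adamts19 (5.88%) had more in the LV of every mouse, against 4.03%. The ratio of Sham means, RV over LV, was 1.83 for Mmp16, 1.51 for Adamts3, 1.36 for Adamts2 and Adamts12 and 1.21 for Adamts6. These values are a description, since the tables were normalized separately. For the other 27 members the direction was not the same in all 5 mice. The 9 Mmp genes of the cluster at chr9:7272514-7699585 (Mmp13, Mmp12, Mmp1b, Mmp3, Mmp10, Mmp8, Mmp27, Mmp20 and Mmp7) were all under the limit in both ventricles, and Mmp1b, Mmp7 and Mmp20 had no read in any library.

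Genes that work with these families were followed in lists assembled for this purpose, with earlier results of these data known. Their counts are small and stand against the same backgrounds, 22% of all genes for the RV and 9.31% for the LV. The shares of these lists are therefore a description and not a test. Of 15 matrix substrates of MMPs, 5 rose and 1 fell in the RV and 4 rose in the LV, with list medians of 0.14 and 0.16 and 40% and 26.7% called. The basement membrane collagens Col4a1 (0.62 in the RV and 0.41 in the LV) and Col4a2 (0.56 and 0.46) rose in both ventricles, and so did fibronectin, Fn1 (0.31 and 0.35). The fibrillar collagen gene Col3a1 fell in the RV (-0.56), and the elastin gene Eln rose in the LV (0.52). Among 8 measured proteoglycan substrates of ADAMTS proteases, biglycan (Bgn) rose in both ventricles (0.79 in the RV and 0.48 in the LV) and perlecan (Hspg2) in the LV (0.29). Versican (Vcan) did not pass in either (0.09 and 0.34), and the calls were 12.5% of this list in the RV and 25% in the LV.

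Of 8 measured activators of matrix proteases, 3 rose and 1 fell in the RV (50% called). Tissue plasminogen activator, Plat (0.58), the MMP inducer basigin, Bsg (0.34), and the urokinase receptor, Plaur (1.22), rose, and the proprotein convertase Pcsk6 fell (-0.62). Furin, which activates MMP14 and MMP11, was the 1 activator called in the LV (12.5% of the list, 0.41). Of 7 measured inhibitors other than TIMPs, Serpine2 rose in both ventricles (0.48 in the RV and 0.46 in the LV), and Reck, a membrane-anchored MMP inhibitor, fell in the RV (-0.47), which is 28.6% of the list in the RV and 14.3% in the LV. Of 7 docking and clearance receptors, 3 rose in the RV, Lrp8 (4.87), Cd63 (0.45), a surface partner of TIMP1, and Cd44 (0.57). In the LV, Lrp8 rose (3.52) and Vldlr fell (-0.41), so the share of receptors called was 42.9% (RV) and 28.6% (LV).

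The related ADAM proteases, which shed membrane proteins, had 2 rises and 1 fall among 9 measured genes in the RV and 3 rises in the LV, 33.3% in each. Adam9 rose in both (1.26 in the RV and 0.68 in the LV), as did Adam15 (0.68 and 0.51). Adam11, which lacks protease activity, fell in the RV (-1.31), and Adam22, which also lacks it, rose in the LV (1.21). Of 14 microfibril partners of ADAMTS-like proteins, 2 rose and 3 fell in the RV (35.7%) and 3 rose in the LV (21.4%). Thsd4, itself an ADAMTS-like gene under another symbol, fell (-1.43), and so did the latent TGF-beta binding protein gene Ltbp1 (-0.49) and Fbn2 (-0.42). Lysyl oxidase, Lox, rose in the RV (0.83) and in the LV (0.50), as did Ltbp2 (2.21 and 1.12), and fibrillin, Fbn1, rose in the LV (0.47).

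Among 3 measured procollagen C-proteinases and enhancers in the RV, Pcolce rose (0.54), as it did among 4 in the LV (0.42), 33.3% and 25% of so short a list. Of 12 measured inducers of matrix protease genes, 3 rose in the RV, the oncostatin M receptor Osmr (0.81), Fosl2 (0.86) and Fos (1.39), a share of 25% that is near the background of 22%. In the LV, Osmr rose (0.77) and Ets2 fell (-0.39), 16.7% of the list. The list medians in the RV were 0.17 for activators, 0.43 for the other inhibitors, 0.28 for receptors, 0.43 for ADAM proteases, 0.08 for microfibril partners and 0.34 for inducers.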

How the data were processed

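Per the labels' protocols, total RNA was extracted with an RNeasy Plus Mini kit (Qiagen), and the library kit was Revelo RNA-Seq High Sensitivity. Tools named in the submitters' processing notes are cutadapt, featureCounts and DESeq2, with build mm10. The aligner, versions and strand setting are not given. The values are a signal that is never negative: gene counts that the authors divided by DESeq2 size factors and deposited as 1 table per ventricle, each normalized on its own, per the labels. Sample names in the header are offset from the values by 2 empty cells, so columns were read in order with those skipped. The share of values equal to a whole number of reads within 0.001 was 100%. These recovered reads gave depth, RPM (reads scaled to library total) and the input of edgeR 4.0.16 and DESeq2 1.42.0, both alternatives.

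The main test was limma 3.58.1 in R 4.3.3 (lmFit, eBayes with trend and robust options), two-sided, on log2 of the deposited value plus 1, for genes with a mean of at least 10, with Benjamini-Hochberg adjustment over all genes tested and a threshold of 0.05. This scale understates changes of low genes. RV and LV were fitted separately, 6 nPAB against 5 Sham libraries. The difference used log2 RV minus log2 LV per mouse. LV and RV libraries with the same arm and number in their titles were paired as 1 animal. The sex genes go against this for nPAB mice 6 and 7. Deviations of paired libraries from the group means correlated at 0.132 to 0.383 in 9 mice and at 0.172 and 0.0548 in nPAB mice 6 and 7. Litters are not stated. Libraries of a group always differed by more than sampling noise (chi-square per degree of freedom 7.47 or more).

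Symbols and gene coordinates came from GENCODE vM21 (mm10), promoters from RefSeq (GRCm38.p6), and figures from matplotlib 3.10.9. The fits were tested on simulated data. Values per library are given for at most 14 called members, by smallest adjusted p over the 3 comparisons, and always for Adamts20, the 4 Timp genes, Mmp2, Mmp9 and Mmp14 if measured. Of each companion list, up to 4 called genes are named by RV p and 2 by LV p. Members, lists and motifs were chosen with earlier results of these data known. Alternatives varied pseudocount, filter, scaling, variance options, weights, a sex term, block and tool, or left out mice. The exchange of the LV libraries of nPAB mice 6 and 7 was chosen after seeing the data.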

Additional observations from a re-analysis of the deposited data

Results flagged for a closer look

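In 12 of the 136 sets of libraries examined (34 members in 4 groups), the gap between the highest or lowest library and its nearest neighbour, as a share of the group's range, exceeded Dixon's 95% critical value. By its construction that threshold marks about 1 in 20 groups by chance, and no rate was measured here. RV Sham mouse 12 was high for Adamts5 (871 against 668 to 713), Adamts6 (181 against 115 to 128) and Adamts9 (855 against 703 to 736). RV Sham mouse 10 was high for Mmp28 (70.2 against 8.75 to 19.1). Among banded RVs, mouse 7 was high for Adamts17 (183 against 102 to 130) and Adamtsl3 (191 against 62.8 to 93.5). Mouse 5 was high for Adamts4 in the RV (84.5 against 46.3 to 54.6), and mouse 8 for Adamtsl1 (90.7 against 39.7 to 52.9). In the Sham LV, mouse 10 was high for Adamts14 (152 against 50.6 to 77.5) and mouse 9 for Mmp11 (205 against 142 to 159). In the banded LV, mouse 6 was high for Adamtsl2 (144 against 41.2 to 75.0) and mouse 11 for Timp4 (698 against 222 to 366).

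For 3 members the test of the difference itself gave unequal changes in the RV and the LV. The RV change minus the LV change, by limma, was -1.08 for Mmp16 (adjusted p = 0.0219, with no overlap between banded and Sham mice). It was 0.85 for Adamtsl5 (adjusted p = 0.0273) and -0.71 for Adamts12 (adjusted p = 0.0301), and for both of these banded mouse 7 lay within the Sham range. The RV and LV libraries of banded mouse 7, like those of banded mouse 6, differ in sex, so these differences are not within 1 animal.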

How the results depend on the processing

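The count of RV calls among the members was 13 to 18 and that of LV calls 5 to 10 under every alternative but 1. Over all genes those fits called 2395 to 3354 in the RV and 670 to 1680 in the LV. With a replicate block on the numbers that occur in both arms the counts were 4 in the RV and 0 in the LV by limma. Over all genes that block left 262 calls in the RV and 29 in the LV. In the LV, 6 members had an unadjusted p under 0.05, a limit for which no share over all genes is given. The numbers found in both arms name different animals, and their libraries correlated at -0.0771 to -0.029, so they share only a number. The count of members whose change differed between ventricles moved more. It was 3 with all mice, 0 without a filter on low values, 0 without the trend and robust options, and 0 without the replicate block, that is without pairing the ventricles of a mouse. By limma 12, 12 and 8 members had an unadjusted p under 0.05 in these 3 fits, against 12 in the main fit. No share over all genes is given at that limit. EdgeR and DESeq2 each called 3 members. It was 1 with the LV libraries of nPAB mice 6 and 7 exchanged, 6 without both (Adamts20 among them), and 0 to 5 when 1 mouse was left out. Over all genes the difference called 147 with all mice, 138 by edgeR, 251 by DESeq2, 90 without the filter and 1 without the trend and robust options. It called 385 genes without banded mouse 7, where 5 members were called. No count over all genes is given for the unpaired fit, or with mice 6 and 7 exchanged or both left out. The counts of members and of all genes did not always move together. Library weights called 262 genes and 3 members, and leaving out Sham mouse 13 called 80 genes and 1 member. No called member reversed its direction under any alternative. Why the counts of calls moved between alternatives was not tested. RPM in place of size factors moved the median of all genes by -0.09 in the RV and -0.07 in the LV. Depth limits the low members most: Adamts20 had 0 to 9 reads per RV Sham library.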

Other observations

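Mmp13, a collagenase under the limit of a mean of 10 and therefore outside the members measured, was chosen here after its values were seen. In the LV it ran from 2.42 to 12.9 normalized counts in the 5 Sham mice (30 reads in all), and the 6 banded mice held 1 read in all, with a highest value of 1.21. In the RV it ran from 1.06 to 11.1 in Sham mice (32 reads) and from 0 to 5.58 in banded mice (15 reads). No test was made of it. Adamts18, chosen in the same way, had 24 reads over the Sham RVs, 5 over the banded RVs, 1 over the Sham LVs and 0 over the banded LVs.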
